A study of Mus musculus with 2 samples.

Results

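Effector cytokines are the secreted or membrane-bound proteins through which lymphocytes act on the cells around them, and 10 of their genes were followed here: Ifng, Csf2, Xcl1, Il22, Il17a, Il2, Il21, Lta, Ltb and Areg. They were chosen by symbol, with earlier results of these data known, from the 32285 gene rows of 2 single-cell RNA libraries of mouse colon lamina propria. All 10 rows were found in both. The libraries were titled Runx3_fl and Runx3, and each was the only one of its group. The study set mice in which floxed Runx3 was to be removed by Cre under the Lyz2 promoter, active in myeloid cells, against floxed littermates without Cre. A legend of the study gives a pooled sample of male mice that were 8 weeks old (n = 6). Neither title states whether Cre was present. Lymphocytes are not the cells in which Lyz2-driven Cre is meant to act.

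Natural killer (NK) cells and T cells make interferon-gamma, encoded by Ifng, which activates macrophages, and XCL1, which attracts cross-presenting dendritic cells. Helper T cells and innate lymphoid cells of the gut wall make IL-22 and IL-17A, which act on the epithelium, while amphiregulin, encoded by Areg, promotes its repair. Transcripts of this kind are often short-lived. Many carry AU-rich elements in their 3′ untranslated region (3′UTR), in which the letters ATTTA recur and to which decay factors such as tristetraprolin, encoded by Zfp36, bind.

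The sites below, from 6 of the 10 genes, are shown because they carry the letters linked to that decay pathway. Each is a 30-base window of the annotated 3′UTR of GRCm38 (GENCODE M21), written 5′ to 3′ on the gene's own strand, with every ATTTA in capitals. The window was picked as the one in that 3′UTR with the most copies of TATTTAT, and then of ATTTA.
Ifng (chr10:118445331-118445360, plus strand): acctATTTAttaatATTTAaaactATTTAt
Xcl1 (chr1:164931653-164931682, minus strand): tttcaaatgttataagtaataaatATTTAt
Csf2 (chr11:54247328-54247357, minus strand): ttttaaatATTTATTTATTTATTTATTTAt
Il22 (chr10:118209883-118209912, plus strand): ttATTTAttataagtatacattttATTTAt
Il17a (chr1:20734192-20734221, plus strand): gtaaagcctatATTTAtatgagctATTTAt
Areg (chr5:91148370-91148399, plus strand): taATTTATTTAatATTTAagtgttATTTAt
The Csf2 window holds 5 overlapping copies, the Areg window 4 and the Ifng window 3. Over the whole 3′UTR, Csf2 held 9 copies in 317 bases, Il21 9 in 2578 bases, Il17a and Il2 7 each, Ifng and Il22 6 each, Areg 4, Lta 3 and Xcl1 1. Ltb, which encodes the membrane-bound lymphotoxin-beta, held 0 in 174 bases. The pentamer itself is common, and 64.3% of the 3′UTRs of 20751 genes held it, read on the transcript strand with overlaps counted. The longer TATTTAT, which contains it, was in 27.2% of all 3′UTRs, and 9 of the 10 cytokine genes held it. Of 3′UTRs of 300 to 1000 bases, 1.01% held at least 3 copies of TATTTAT. Each of the 6 cytokine genes of that length did, with 9 copies in Csf2, 4 in Ifng and Il22, and 3 in Il17a, Il2 and Lta. The still longer TTATTTATT was in 7.40% of all 3′UTRs. Csf2 held 4 copies of it and Il22, Il2, Il21, Lta and Areg 1 each, while Ifng, Xcl1, Il17a and Ltb held 0. These are matches of letters and were not tested as sites of binding.

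The 10 genes lie on 6 chromosomes, and all are annotated as protein coding. Il2 (chr3:37120523-37125959) and Il21 (chr3:37222759-37232636) are 96799 bases apart with 0 protein-coding genes between them, and Lta (chr17:35203165-35205351) and Ltb (chr17:35194439-35196320) are 6844 bases apart with only Tnf between. Ifng (chr10:118441046-118445892) and Il22 (chr10:118204942-118210047) are 230998 bases apart, and the 9 coding genes between them include Iltifb, a close copy of Il22, so the level of Il22 is uncertain. Ifng overlaps Gm49751 on the same strand, Lta overlaps Mir6974 and Ltb overlaps Mir6973a, so reads of these pairs may not be told apart. The remaining genes are Csf2 (chr11:54247271-54249667), Xcl1 (chr1:164931644-164935527), Il17a (chr1:20730905-20734496) and Areg (chr5:91139599-91148432).

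A UMI, or unique molecular identifier, counts 1 captured RNA molecule, here at its 3′ end, and a level is given in CPM, the gene's UMIs per 1000000 UMIs summed over the cells of a class. Cells with 200 to 6000 genes and at most 15% mitochondrial UMIs were kept, which left 11885 of 12968 cells of the Runx3_fl-labelled library and 8167 of 8953 cells of the Runx3-labelled library, at median depths of 9573 and 5731 UMIs. They shared 37 cell barcodes. The labels call the cells CD11b-positive, yet Itgam, the gene of CD11b, had a UMI in 23.2% to 59.7% of the cells of the lymphocyte classes. In macrophages Runx3 was no lower in the Runx3-labelled library, at 154 CPM in the Runx3_fl-labelled library and 218 CPM in the other. Xist, a transcript of female cells, was at 161 to 297 CPM in the lymphocyte classes of the Runx3_fl-labelled library and at 4 UMIs or fewer in each of the other, although that legend names male mice. Every direction is therefore one between labelled libraries and not between genotypes. With 1 library a group no test was possible, and no p-value is given. All intervals are 95% intervals of counting error alone.

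The 5 classes were set by rule. The numbers of cells in the Runx3_fl-labelled library and in the Runx3-labelled library were 1396 and 127 NK cells (Ncr1, no Cd3e), 1213 and 76 CD8 T cells (Cd8a, Cd8b1 and Cd3e), and 1543 and 208 CD4 T cells (Cd4 and Cd3e). They were 216 and 171 cells with Il7r and Rora and no Cd3e, a rule meant for innate lymphoid cells, and 608 and 1997 cells with Cd79a, a rule meant for B cells. Cells with Cd3e that met neither T cell rule numbered 695 and 391. Of these, 32 and 73 also met the Cd79a rule and are counted in both groups. A cell could meet more than 1 rule, and 46 and 5 cells were both CD8 and CD4 T cells.

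Markers bore out the NK label in both libraries, with Nkg7 in 97.7% and 94.5% of cells and Eomes in 76.1% and 72.4%. The CD8 T cells had Cd3d in 98.8% and 88.2% of cells, but Gzmk in 87.5% and 22.4%. The CD4 T cells of the 2 libraries were unlike in makeup. Nkg7, a gene of cytotoxic granules, was in 94.3% of them in the Runx3_fl-labelled library and 14.9% in the Runx3-labelled library, and Foxp3, which defines regulatory T cells, was in 1.56% and 19.2%. Cd3d was in 97.7% and 80.3% of the CD4 T cells. Myeloid genes were in more of them in the Runx3-labelled library, with Lyz2 in 22.4% and 42.3% and Csf1r in 11.2% and 34.1%. In CD8 T cells Lyz2 was in 21.8% and 42.1%. The cells with Il7r and Rora held markers of innate lymphoid cells and of myeloid cells. Of the first, Id2 was in 81.9% and 81.3% of them, Kit in 48.6% and 23.4%, Thy1 in 27.8% and 22.2%, and Gata3 in 17.6% and 33.9%. Of the second, Lyz2 was in 42.6% and 53.2% and Csf1r in 34.3% and 43.3%. They are called Il7r Rora cells here. The cells with Cd79a also held other cells, with Cd79b in 63.0% and 49.6%, Cd3d in 19.7% and 6.26%, and Nkg7 in 29.6% and 4.46%. Their makeup also differed between libraries, with the plasma cell genes Mzb1 in 63.5% and 31.4% and Jchain in 60.5% and 42.3%, and the B cell gene Ms4a1 in 24.3% and 56.1%. They are called Cd79a cells. S100a8, a neutrophil gene, was in 2.01% to 5.56% of the cells of the 5 classes in the Runx3_fl-labelled library and in 56.6% to 60.8% in the Runx3-labelled library. The part of these differences in the results below was not tested.

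**Figure D1:**
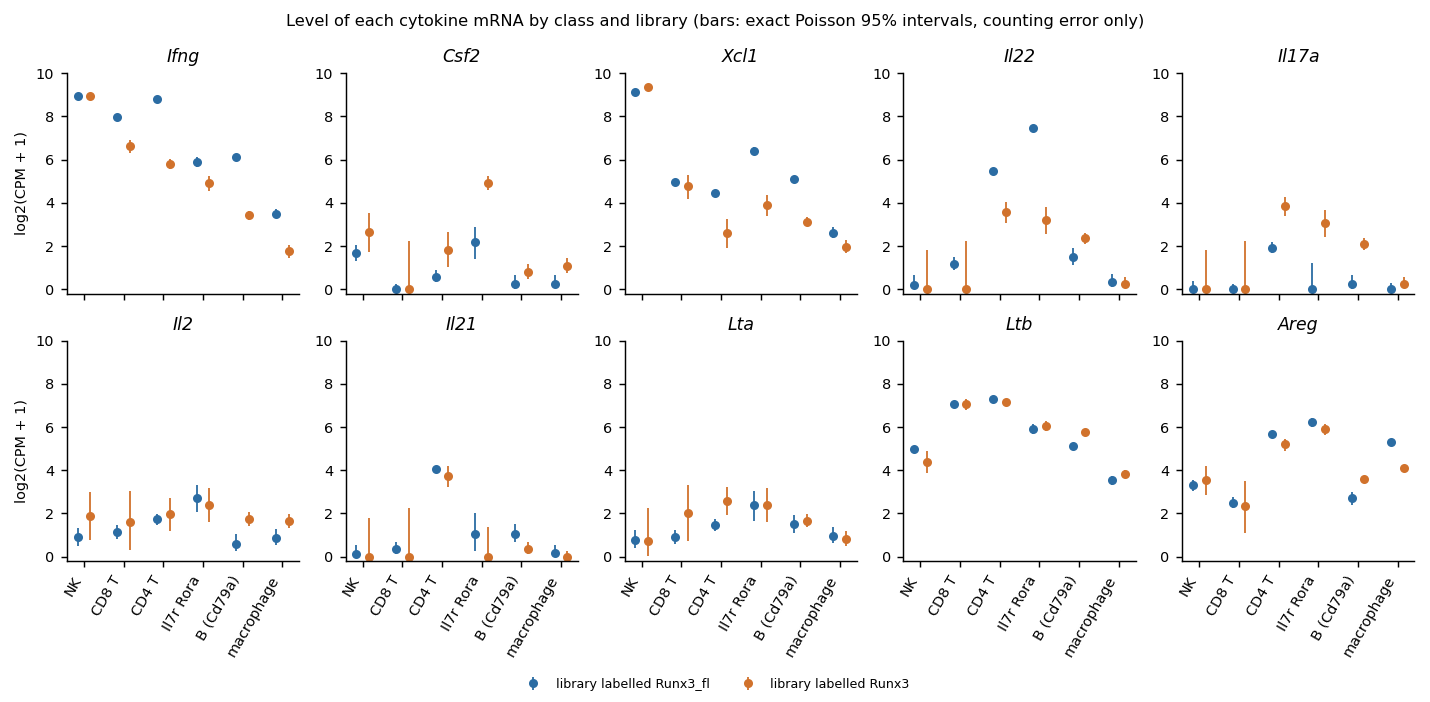
Level of each cytokine gene as log2(CPM + 1), with 1 panel a gene, in the 5 classes and in macrophages; blue points are the Runx3_fl-labelled library, orange points the Runx3-labelled library, and bars the exact Poisson 95% intervals. The Ifng points of the 2 libraries coincide in NK cells and stand apart in CD4 T cells, whereas the Ltb points of CD8 T and CD4 T cells nearly coincide.

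Over all kept cells Ifng was the most abundant of the 10 in the Runx3_fl-labelled library and came after Ltb in the Runx3-labelled library, and its pattern split NK cells from T cells. In NK cells Ifng was at 489.8 CPM (95% Poisson interval 478 to 502, 6343 UMIs) in the Runx3_fl-labelled library and at 492 CPM (457 to 529, 736 UMIs) in the Runx3-labelled library. The intervals overlapped, and the log2 ratio of the levels plus 1 CPM, Runx3 over Runx3_fl, was 0.01 (-0.11 to 0.12). In CD8 T cells Ifng was at 252 CPM (245 to 259, 5350 UMIs) and 96.9 CPM (78.5 to 118, 96 UMIs), which gave a log2 ratio of -1.37 (-1.68 to -1.09). For CD4 T cells the levels were 453 CPM (444 to 461, 11220 UMIs) and 54.6 CPM (46.2 to 64.0, 152 UMIs), a log2 ratio of -3.03 (-3.29 to -2.82). NK cells and CD4 T cells of the Runx3_fl-labelled library thus held Ifng at nearby levels, although their intervals did not overlap, while in the Runx3-labelled library the NK level stood far above both T cell levels and the T cell intervals did not overlap. The CD8 T value rested on 16 cells with a UMI in the Runx3-labelled library, 1 of which held 29 of the 96 UMIs, and without the top cell of each library the levels were 249 and 68.1 CPM. Read on cells thinned to 2000 UMIs, the CD8 T rule left 125 and 8 cells, and the log2 ratio of Ifng there was 0.66, of the opposite sign. Where T cells with any Cd79a, Lyz2, Csf3r or Csf1r UMI were left out, the CD8 T levels were 266 and 191 CPM, from 874 and 33 cells, and the CD4 T levels 541 and 114 CPM, from 1121 and 92 cells.

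The share of cells with an Ifng UMI followed the same order once each cell was thinned to 2000 UMIs, cells below that depth being left out. In NK cells it was 50.9% (exact Clopper-Pearson interval 48.3 to 53.6) in the Runx3_fl-labelled library and 48.0% (39.0 to 57.1) in the Runx3-labelled library, and the intervals overlapped. In CD8 T cells it was 31.8% (29.2 to 34.5) and 7.89% (2.95 to 16.4). For CD4 T cells it was 35.5% (33.1 to 37.9) and 5.80% (3.03 to 9.91). For CD8 T and CD4 T cells the intervals of the libraries lay apart. Macrophages, which should lack the transcript, gave 1.30% and 0.509%, and neutrophils 2.23% and 0% of 210 cells, which allows a share of up to 1.43%, so all 6 shares above were over this background. Thinning left out 4 and 2 NK cells, 1 and 0 CD8 T cells, 1 and 1 CD4 T cells, 2 and 42 macrophages and 21 and 21 neutrophils. Before thinning the shares were 83.2% and 83.5% in NK cells, 76.4% and 21.1% in CD8 T cells, 75.8% and 14.4% in CD4 T cells, and 5.74% and 1.76% in macrophages. Median depths were 8015 and 10214 UMIs in NK cells, 15698 and 11317.5 in CD8 T cells, 14269 and 10052.5 in CD4 T cells and 13984.5 and 11505.5 in macrophages.

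**Figure D2:**
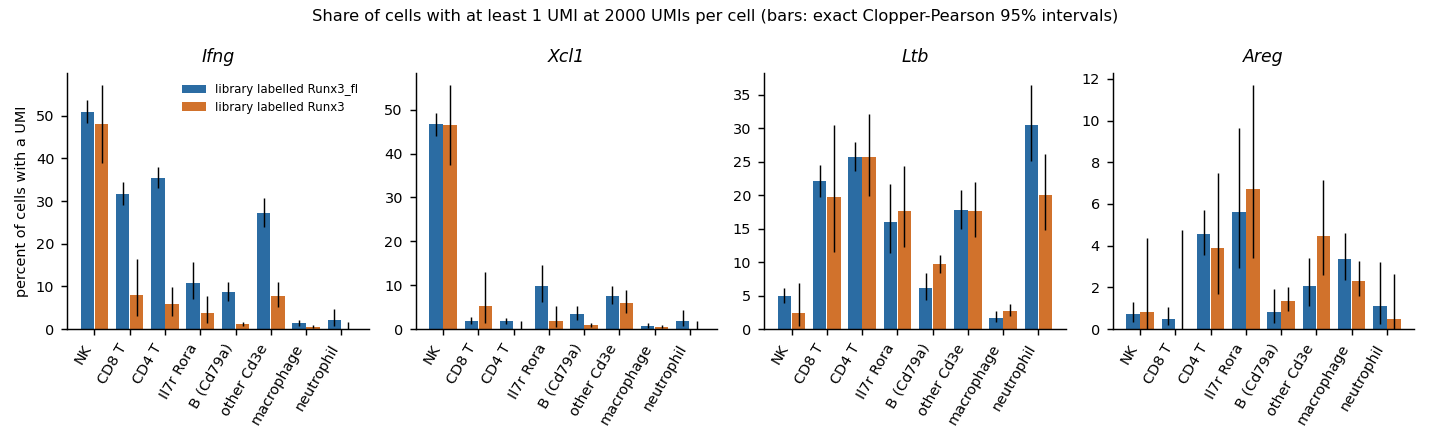
Percent of cells with at least 1 UMI of Ifng, Xcl1, Ltb and Areg at 2000 UMIs a cell, in 8 classes, with exact Clopper-Pearson 95% intervals; blue bars are the Runx3_fl-labelled library and orange bars the Runx3-labelled library. The Ifng bars are even in NK cells and unlike in the T cell classes, and the Xcl1 bars are highest in NK cells.

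The amount per cell was uneven. The 10% of cells with the most Ifng held 39.7% and 44.6% of the UMIs of NK cells in the Runx3_fl-labelled library and the Runx3-labelled library, but 59.7% and 94.1% of those of CD4 T cells. The highest single cell held 485 Ifng UMIs in CD4 T cells of the Runx3_fl-labelled library and 47 in the Runx3-labelled library. At least 1 Ifng UMI in a thinned cell was therefore common in NK cells of both libraries and scarce in T cells of the Runx3-labelled library, where a few cells carried most of it.

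**Figure D3:**
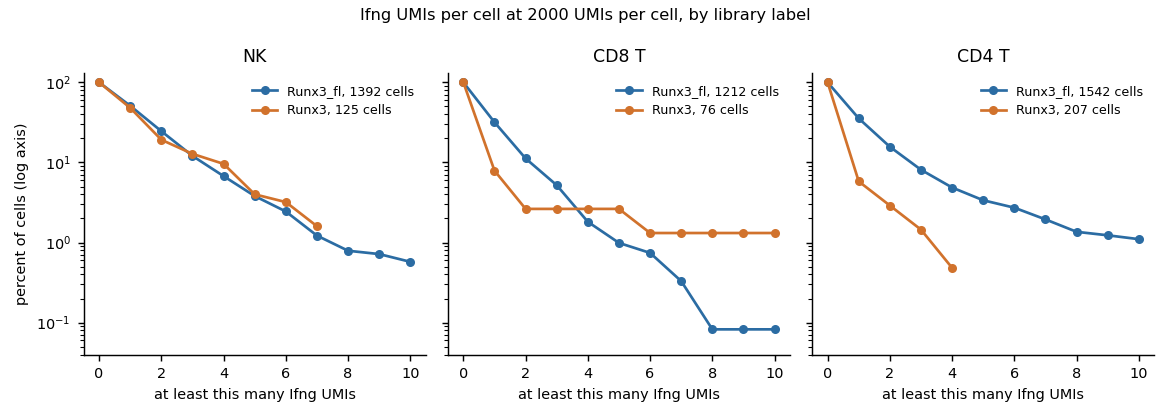
Percent of cells (log axis) with at least the number of Ifng UMIs on the x axis at 2000 UMIs a cell, in NK, CD8 T and CD4 T cells; blue lines are the Runx3_fl-labelled library, orange lines the Runx3-labelled library, and points at 0% are not drawn. The NK lines run close together, the CD8 T line of the Runx3-labelled library crosses above the other on 2 cells, and the CD4 T line of the Runx3-labelled library starts at 5.80% with 1 UMI, against 35.5%.

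Subsets of the CD4 T cells held Ifng unevenly. Cells with a Foxp3 UMI had 124 CPM (24 cells) in the Runx3_fl-labelled library and 6.96 CPM (4 UMIs, 40 cells) in the Runx3-labelled library, and cells without one had 458 and 66.9 CPM. The lower level in the Runx3-labelled library was thus present on both sides of that split. In the Runx3_fl-labelled library, cells with Il1rl1, the IL-33 receptor gene, had 679 CPM (662 to 696, 494 cells) and those without it 328 CPM (319 to 337, 1049 cells). The library labelled Runx3 had 9 CD4 T cells with Il1rl1. In NK cells Ifng was at 502 and 516 CPM with Eomes, a transcription factor of conventional NK cells, and at 444 and 397 CPM without it. The intervals of the 2 libraries overlapped on both sides of the Eomes split.

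Outside these classes Ifng was lower. In Il7r Rora cells it was at 58.8 and 28.9 CPM, a log2 ratio of -1.0 (-1.46 to -0.61), and in Cd79a cells at 69.4 and 9.70 CPM, a log2 ratio of -2.72 (-3.08 to -2.61). Both values moved with the other cells in those classes. The 26 Il7r Rora cells of the Runx3_fl-labelled library that also had Ncr1 were at 285 CPM of Ifng and those without Ncr1 at 32.1 CPM, against 18.7 CPM for the 168 without it in the Runx3-labelled library. Cd79a cells with Cd79b were at 25.0 and 6.30 CPM, those without it at 199 and 14.8 CPM, and Cd79a cells free of T, NK and myeloid marker UMIs at 11.9 and 7.57 CPM, near the macrophage levels of 10.2 and 2.38 CPM. Other cells with Cd3e had 214 and 61.1 CPM, a log2 ratio of -1.79 (-2.0 to -1.62).

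Xcl1 encodes a chemokine of NK cells and CD8 T cells. In NK cells it was at 563 CPM (551 to 576) in the Runx3_fl-labelled library and 665 CPM (625 to 708) in the Runx3-labelled library, a log2 ratio of 0.24 (0.14 to 0.34). The intervals of the 2 levels lay apart, with the Runx3-labelled library higher by less than 2-fold, but the sign turned in NK cells without Itgam (-0.74) and with the rule read on thinned cells (-0.05). The share of thinned NK cells with an Xcl1 UMI was 46.7% and 46.4%, against 0.649% and 0.436% of macrophages. In CD8 T cells the level was 29.8 and 26.2 CPM, a log2 ratio of -0.18 (-0.81 to 0.38), and in CD4 T cells 20.9 and 5.02 CPM, a log2 ratio of -1.86 (-2.94 to -1.30). NK cells thus stood far above both T cell classes in Xcl1 in each library. One CD8 T cell of the Runx3_fl-labelled library held 156 of the 633 UMIs there and 1 of the Runx3-labelled library 15 of 26, and with the top cell of each library left out the CD8 T levels were 22.5 and 11.2 CPM, a log2 ratio of -0.94. With called doublets removed the CD4 T ratio turned to 0.25. Xcl1 in Il7r Rora cells was at 84.7 and 13.8 CPM, a log2 ratio of -2.53 (-3.20 to -2.08). In those without Ncr1 it was at 38.7 and 8.0 CPM, and in the 26 cells with Ncr1 in the Runx3_fl-labelled library it was at 475 CPM. In Cd79a cells it was at 33.2 and 7.78 CPM.

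Thinned NK cells with Ifng had Xcl1 about as often as those without Ifng. Of NK cells with an Ifng UMI in the Runx3_fl-labelled library, 47.5% (43.8 to 51.3, 709 cells) had an Xcl1 UMI, and of those without one 45.8% (42.0 to 49.6, 683 cells) did. The values in the Runx3-labelled library were 43.3% and 49.2%, and the intervals overlapped in both. Among Il7r Rora cells of the Runx3_fl-labelled library the pair went together, with Xcl1 in 30.4% of 23 cells with Ifng and in 7.37% of 190 without it. Of all Il7r Rora cells of that library, 26 also met the NK rule, and their part in this was not tested. In CD4 T cells of that library 1 of 30 ordered pairs had intervals apart. It was Ifng among cells with Il22, found in 62.5% (40.6 to 81.2) of 24 cells, against 35.0% (32.6 to 37.5) of the others.

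Il22 was carried by few cells at high level. The CD4 T cells had it at 43.7 CPM (41.1 to 46.4, 1083 UMIs) in the Runx3_fl-labelled library and at 10.8 CPM (7.26 to 15.4, 30 UMIs) in the Runx3-labelled library, a log2 ratio of -1.93 (-2.60 to -1.50). A single cell held 760 of the 1083 UMIs, and with the top cell of each library left out the levels were 13.0 and 5.77 CPM, a log2 ratio of -1.05. The direction turned to 0.95 in CD4 T cells without myeloid or Cd79a UMIs, at 15.5 and 30.8 CPM, and to 0.087 in cells without Itgam. Il22 in Il7r Rora cells was at 177 CPM, from 505 UMIs in 8 cells, and 8.20 CPM, from 19 UMIs in 3 cells, a log2 ratio of -4.27 (-5.17 to -3.77), which was -0.55 with the rule read on thinned cells. In other cells with Cd3e the order was the opposite, with 1.29 CPM (10 UMIs) and 37.3 CPM (160 UMIs in 13 cells), a log2 ratio of 4.06 (3.93 to 5.94). The top cell there held 71 UMIs, and without the top cells the levels were 0.907 and 20.8 CPM. Other cells with Cd3e that met none of the 5 rules had Il22 at 1.41 and 27.6 CPM, from 10 and 84 UMIs. In Cd79a cells 21 of 22 and 71 of 80 UMIs lay in 1 cell each, and the log2 ratio of 0.87 rests on those cells. NK cells had 2 and 0 Il22 UMIs, at or under the 3 counts that a 0 allows.

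Il17a, the gene of the cytokine that names the Th17 helper T cells, was scarce in the Runx3_fl-labelled library. Among CD4 T cells it was at 2.78 CPM (2.17 to 3.52, 69 UMIs in 18 cells) there and at 13.3 CPM (9.35 to 18.3, 37 UMIs in 7 cells) in the Runx3-labelled library, a log2 ratio of 1.92 (1.64 to 2.85), which was 0.09 with the rule read on thinned cells and 0.23 in cells with Itgam. Other cells with Cd3e had 1.29 CPM (10 UMIs in 3 cells) and 42.2 CPM (181 UMIs in 27 cells), a log2 ratio of 4.24 (4.12 to 6.11). The share of these cells with a UMI, thinned, was 0.147% (0.00371 to 0.814) and 3.91% (2.15 to 6.47), and the intervals lay apart. Other cells with Cd3e that met none of the 5 rules had Il17a at 1.41 and 42.4 CPM, from 10 and 129 UMIs. The macrophage shares were 0% of 1078 cells, which allows up to 0.278%, and 0.0727%. In Il7r Rora cells it was at 0 UMIs in the Runx3_fl-labelled library and at 17 UMIs in 6 cells in the Runx3-labelled library, at least 6.98-fold higher against a floor of 3 counts for the class. NK and CD8 T cells of both libraries had 0 Il17a UMIs. Of the 62 UMIs in Cd79a cells of the Runx3-labelled library, 37 lay in 1 cell. Over the 10 points of 5 classes in 2 libraries, the patterns most like that of Il17a were those of Il10 (r = 0.89), Wdfy2 (0.87) and Vsir (0.86). These values describe likeness only, and the NK and CD8 T points of Il17a were all 0.

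Csf2 encodes GM-CSF, a growth and activating factor of myeloid cells that innate lymphoid cells supply in the gut. In Il7r Rora cells it was at 3.50 CPM (1.68 to 6.44, 10 UMIs in 6 cells) in the Runx3_fl-labelled library and at 29.3 CPM (22.8 to 37.2, 68 UMIs in 16 cells) in the Runx3-labelled library, a log2 ratio of 2.75 (2.10 to 4.19). One cell of the Runx3-labelled library held 30 of the 68 UMIs, and without the top cells the levels were 2.46 and 16.5 CPM. Cells with Gata3, the factor of type 2 innate lymphoid cells, carried most of it, at 19.0 CPM in 38 cells and 106 CPM in 58 cells, against 1.21 and 2.90 CPM without Gata3. Among Il7r Rora cells without Lyz2 the levels were 7.05 and 71.1 CPM. Csf2 was scarce in the Runx3_fl-labelled library, with 110 UMIs over all kept cells. Counting apart the cells that met more than 1 rule, NK cells held 24.5% of these and Il7r Rora cells 9.09%. NK cells had 28 and 8 UMIs, a log2 ratio of 1.01 (-0.04 to 2.48), CD4 T cells 12 and 7 UMIs, and CD8 T cells 0 and 0. Other cells with Cd3e had Csf2 at 3.75 CPM (2.51 to 5.39, 29 UMIs) and 21 CPM (16.9 to 25.8, 90 UMIs), which gave a log2 ratio of 2.21 (1.87 to 3.14), and they held 34.5% of the Csf2 UMIs of the Runx3-labelled library, against 26.9% in Il7r Rora cells. In each library 1 such cell held most of it, with 20 and 66 UMIs, and without these cells the levels were 1.17 and 5.61 CPM.

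Areg, the gene of the epidermal growth factor family ligand amphiregulin, was highest in Il7r Rora cells in both libraries. Il7r Rora cells had it at 73.2 CPM (63.6 to 83.8) in the Runx3_fl-labelled library and 58.2 CPM (48.8 to 68.9) in the Runx3-labelled library, and those with Gata3 were at 286 and 190 CPM, against 41.8 and 12.8 CPM without it. The log2 ratio of -0.32 for all Il7r Rora cells turned to 0.44 in those free of Cd79a and myeloid UMIs. In CD4 T cells it was at 50.9 CPM (48.1 to 53.8) and 35.5 CPM (28.9 to 43.3), which gave a log2 ratio of -0.51 (-0.83 to -0.22), although the sign turned in cells free of Cd79a and myeloid UMIs (0.62) and in cells without Itgam (0.08). The difference lay in cells without Foxp3, at 50.5 and 18.1 CPM, whereas cells with Foxp3 were at 75.9 and 103 CPM, where the intervals overlapped. Thinned shares were 4.54% and 3.86% in CD4 T cells and 5.63% and 6.71% in Il7r Rora cells, with overlapping intervals. Other cells with Cd3e had Areg at 23.7 CPM (20.4 to 27.4) and 39.4 CPM (33.7 to 45.8), which gave a log2 ratio of 0.71 (0.43 to 1.05). In the Runx3-labelled library their interval overlapped that of CD4 T cells. Macrophages had 3.34% and 2.33%, and the CD4 T share overlapped theirs in both libraries. Areg is not a lymphocyte transcript alone: macrophages were at 38.2 CPM (35.2 to 41.4) and 16.0 CPM (14.2 to 18.0), which gave a log2 ratio of -1.20 (-1.46 to -1.05).

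Ltb was the member whose T cell levels were most alike. In CD8 T cells it was at 131 CPM (126 to 136) in the Runx3_fl-labelled library and 132 CPM (111 to 157) in the Runx3-labelled library, a log2 ratio of 0.01 (-0.25 to 0.26). The CD4 T cells had 156 CPM (152 to 161) and 144 CPM (130 to 158), which gave a log2 ratio of -0.12 (-0.28 to 0.02), and the thinned shares were 25.7% and 25.6%, against 1.67% and 2.76% of macrophages. These intervals overlapped, in the same cells in which Ifng differed. In NK cells Ltb was at 30.3 and 20.1 CPM, a log2 ratio of -0.57 (-1.18 to -0.06), and in Cd79a cells at 33.7 and 52.9 CPM, a log2 ratio of 0.64 (0.49 to 0.82). Neutrophils also held it, at 207 CPM (181 to 237) and 120.4 CPM (105 to 137), with 30.5% and 20.0% of thinned cells having a UMI.

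Lta, whose product forms the lymphotoxin heterotrimer with that of Ltb, was near the counting floor. It was at 1.78 CPM (44 UMIs) and 5.02 CPM (14 UMIs) in CD4 T cells, a log2 ratio of 1.12 (0.52 to 2.40), at 0.847 and 3.03 CPM (3 UMIs) in CD8 T cells and at 4.20 and 4.31 CPM in Il7r Rora cells. The CD8 T ratio of 1.13 had an interval of -0.57 to 3.61. Its level was far under that of Ltb in CD4 T cells of both libraries, on the scale of 3′ UMIs, which does not depend on transcript length. Il2, the growth factor of T cells, was at 2.30 CPM (57 UMIs) and 2.87 CPM (8 UMIs) in CD4 T cells, a log2 ratio of 0.23 (-0.96 to 1.39). Of the 57 UMIs, 31 lay in 1 cell. Macrophages had 0.830 and 2.10 CPM of Il2, so its levels were close to background. Il21, which helper T cells supply to B cells, was at 15.4 CPM (13.9 to 17.0) and 12.2 CPM (8.45 to 17.1) in CD4 T cells, a log2 ratio of -0.31 (-0.89 to 0.17). In the Runx3-labelled library 1 cell held 18 of its 34 UMIs, and without the top cells the levels were 14.5 and 5.81 CPM. Each of the other 4 classes had 13 Il21 UMIs or fewer in either library.

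**Figure D4:**
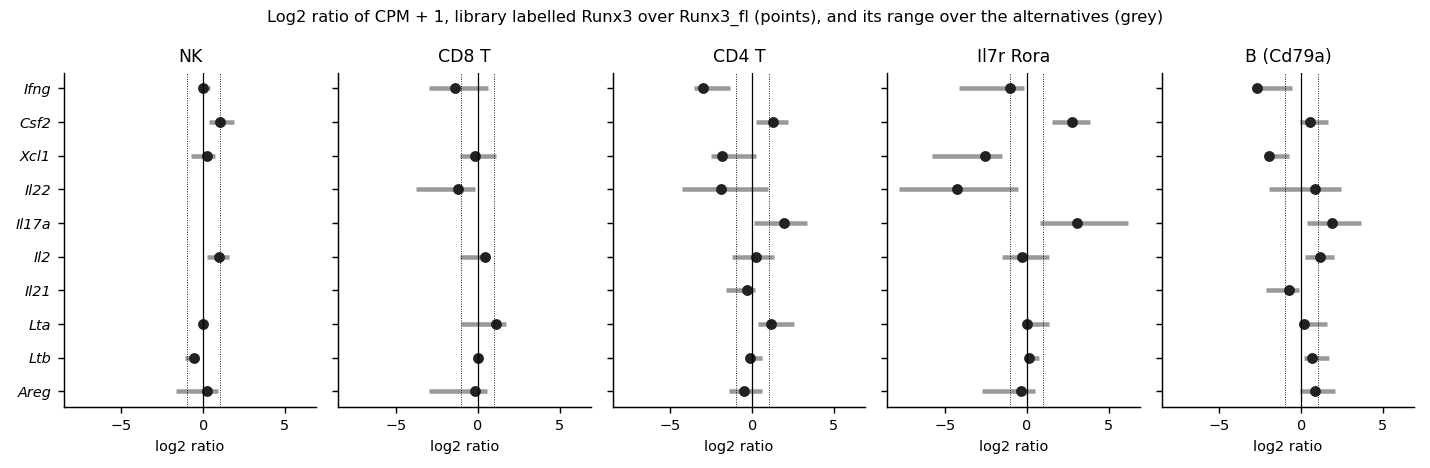
Log2 ratio of CPM + 1, Runx3-labelled over Runx3_fl-labelled library, for each cytokine gene (points) in the 5 classes, with the range over the processing alternatives (grey bars) and 2-fold marked (dotted lines); a gene with under 10 UMIs in the class has no point. Ifng in CD4 T cells stays left of the 2-fold line (-3.57 to -1.33), and Csf2 in Il7r Rora cells right of it (1.54 to 3.89).

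Counted together, the 10 genes did not move one way. Genes with at least 10 UMIs over both libraries were compared, and 2-fold was the limit. In NK cells 7 of the 10 were compared, and 0 were at least 2-fold lower in the Runx3-labelled library, against 4.18% of 12891 genes, while 1 was at least 2-fold higher (Csf2, with an interval that held 0), against 7.53%. In CD8 T cells 2 of 7 were lower (Ifng and Il22), against 12.1% of 13752 genes, and 1 was higher (Lta, with an interval that held 0), against 15.5%. Il22 had 27 and 0 UMIs there, and a 0 allows up to 3.03 CPM, above the 1.27 CPM of the Runx3_fl-labelled library, so that its difference was not detectable at this depth. In CD4 T cells, where all 10 were compared, 3 were lower (Ifng, Xcl1 and Il22), against 7.79% of 14435 genes, and 3 were higher (Csf2, Il17a and Lta), against 15.9%. In Il7r Rora cells 3 of 9 were lower (Ifng, Xcl1 and Il22), against 4.03% of 11798 genes, and 2 were higher (Csf2 and Il17a), against 13.4%. In Cd79a cells 2 of 10 were lower (Ifng and Xcl1), against 9.91% of 15931 genes, and 2 were higher (Il17a and Il2), against 16.3%. Among Cd79a cells free of T, NK and myeloid marker UMIs, Ifng was at 11.9 and 7.57 CPM and Xcl1 at 11.3 and 4.85 CPM. Il17a had 0 and 3 UMIs in them. Il2, at 0.498 and 2.33 CPM in all Cd79a cells, was near the macrophage levels of 0.830 and 2.10 CPM. The median log2 ratio of the compared members was 0.24 in NK, -0.17 in CD8 T, -0.22 in CD4 T, -0.31 in Il7r Rora and 0.60 in Cd79a cells, beside 0.07, 0.05, 0.08, 0.17 and 0.22 for all genes compared, so that ratios in Il7r Rora and Cd79a cells are lower by the last 2 of these values relative to the median gene.

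The places where each transcript was found differed with the numbers of cells. Over all kept cells Ifng was at 223 CPM in the Runx3_fl-labelled library and 27.8 CPM in the Runx3-labelled library, and fewer cells of a type and less RNA per cell both enter this value. Counting apart the cells that met more than 1 rule, CD4 T cells held 34.9% of its UMIs, NK cells 19.9% and CD8 T cells 15.9% in the Runx3_fl-labelled library. In the Runx3-labelled library NK cells held 36.0% of them, other cells with Cd3e 13.0% and CD4 T cells 8.07%. Cells under no rule that had both Nkg7 and Prf1, genes of cytotoxic granules, held a further 15.4% and 14.3%. Xcl1 lay in NK cells and these cytotoxic cells, at 40.6% and 38.3% of its UMIs in the Runx3_fl-labelled library and 53.5% and 13.0% in the Runx3-labelled library. Il21 lay mostly in CD4 T cells in both libraries, with 84.9% and 61.8% of its UMIs. Il17a lay mostly in CD4 T cells in the Runx3_fl-labelled library, with 80.7%, and 48.7% of it lay in other cells with Cd3e in the Runx3-labelled library. Of Ltb UMIs in the Runx3-labelled library, 29.9% lay in Cd79a cells.

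**Figure D5:**
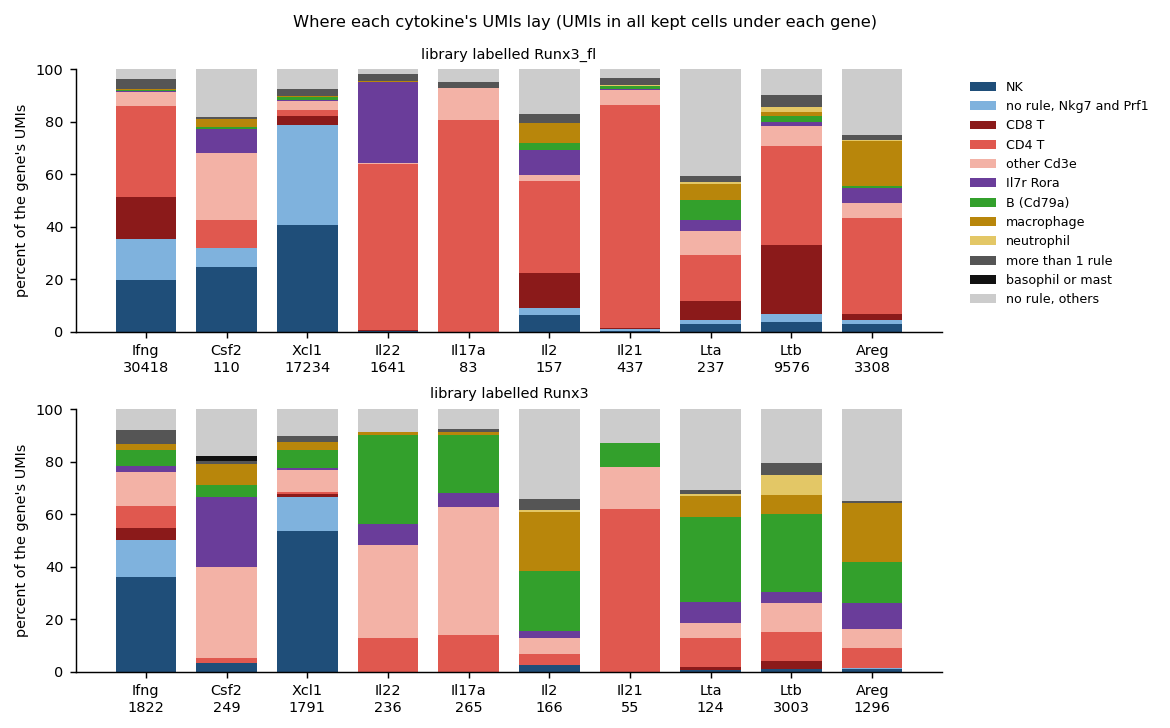
Percent of each gene's UMIs by the class of cell they lay in, for the Runx3_fl-labelled library (top) and the Runx3-labelled library (bottom), with the gene's UMIs over all kept cells printed under its name. The NK and cytotoxic blues make up most of Xcl1 in both libraries, and the CD4 T red of Ifng, 34.9% at the top, is 8.07% at the bottom.

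Receptors of these cytokines were read in the same classes. Of 19 receptor genes, 16 were compared in CD4 T cells, where 3 were at least 2-fold lower and 8 at least 2-fold higher in the Runx3-labelled library, against 7.79% and 15.9% of all genes. In NK cells 16 were compared, of which 0 were lower and 3 higher, against 4.18% and 7.53%. Il2ra, the high-affinity subunit of the IL-2 receptor, was at 306 and 36.3 CPM in CD8 T cells (log2 ratio -3.04) and at 321 and 75.4 CPM in CD4 T cells (-2.07). Ifngr1, the ligand-binding chain of the interferon-gamma receptor, was at 621 and 285 CPM in CD4 T cells (-1.12) and 659 and 243 CPM in CD8 T cells (-1.43). Its partner chain went the other way, with Ifngr2 at 5.61 and 89.4 CPM in CD4 T cells (3.77) and 4.33 and 51.5 CPM in CD8 T cells (3.30). Macrophages, in which Ifngr2 was at 58.0 and 111 CPM, express this chain, and myeloid genes were in more of the T cells of the Runx3-labelled library. The part of that in the Ifngr2 values was not tested. Il21r was at 146 and 559 CPM in CD8 T cells (1.93).

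Transcription factors that act on these genes were read in the same way. Of 16 regulators, 4 were at least 2-fold lower and 1 at least 2-fold higher in CD4 T cells, against 7.79% and 15.9% of all genes. In CD8 T cells 3 and 1 of 15 compared were, against 12.1% and 15.5%, and in NK cells 0 and 1 of 15, against 4.18% and 7.53%. Tbx21, encoding T-bet, which drives Ifng, was at 95.3 and 42.3 CPM in CD4 T cells (log2 ratio -1.15) and at 273 and 274 CPM in NK cells (0.00). Stat4, through which IL-12 acts, was at 639.9 and 271 CPM in CD4 T cells (-1.23), and Batf at 142 and 54.6 CPM (-1.37). Ahr, a factor of Il22 and Il17a producers, was at 29.7 and 62.8 CPM in CD4 T cells (1.06) but at 226 and 130.3 CPM in Il7r Rora cells (-0.79), where Gata3 was at 42.7 and 135 CPM (1.63). Runx3 itself was at 801 and 613 CPM in NK cells, 231 and 362 CPM in CD8 T cells and 252 and 181 CPM in CD4 T cells.

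Of 15 other lymphocyte cytokines, 4 of 10 compared were at least 2-fold lower in CD4 T cells and 1 was higher, against 7.79% and 15.9% of all genes. Ccl5, a chemokine of cytotoxic cells, was at 1681 and 258 CPM there (log2 ratio -2.70), and in NK cells at 7012 and 3873 CPM (-0.86). Fasl, the death ligand, was at 68.0 and 17.6 CPM in CD4 T cells (-1.89). Cd40lg, the helper signal to B cells, was at 77.3 and 23.3 CPM (-1.69). Il10, which restrains inflammation, was at 54.0 and 217 CPM in CD4 T cells (1.99). Fasl was also the gene whose pattern over the 10 points of class and library was most like that of Ifng among 5137 genes (r = 0.97), followed by Il12rb2 and Gm19585 (0.96 each). For Xcl1 it was Klre1 (0.99), then Klra9 (0.98) and Samd3 (0.97). The first 3 for Csf2 were Tuba1c (0.92), Eif4e (0.89) and Grina (0.88), and for Il22 Cytip (0.93), Tap2 (0.92) and Pmvk (0.89). For Il21 the first 3 were Tshz2 (0.94), Cd4 and Cd40lg (0.89 each), for Ltb Sntb1 (0.96), Grap2 (0.95) and Bcl11b (0.94), and for Areg Itm2c (0.94), Trps1 (0.93) and Rilpl2 (0.91). The points share 2 libraries, and overlapping cells, and Cd4 chose a class, so these values describe likeness only.

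Of 6 genes whose products act in the decay of cytokine mRNAs, Zfp36, Zfp36l1 and Zfp36l2 encode proteins that bind AU-rich elements, and Zc3h12a, Rc3h1 and Rc3h2 encode proteins that read stem-loops. In the 5 classes 0 of the 6 were at least 2-fold lower in the Runx3-labelled library, against 4.03% to 12.1% of all genes compared. At least 2-fold higher were 1 in NK cells, against 7.53% of all genes compared there, 3 in CD8 T cells (15.5%), 2 in CD4 T cells (15.9%), 1 in Il7r Rora cells (13.4%) and 2 in Cd79a cells (16.3%). Tristetraprolin's gene Zfp36 was at 219 and 569 CPM in NK cells (log2 ratio 1.37), 109 and 866 CPM in CD8 T cells (2.98), 122 and 748 CPM in CD4 T cells (2.60), 479 and 1278 CPM in Il7r Rora cells (1.41) and 208 and 763 CPM in Cd79a cells (1.87). It was found in 25.4% and 50.4% of thinned NK cells and in 16.1% and 58.0% of thinned CD4 T cells. Macrophages had 687 and 1437 CPM of Zfp36 (1.06). In neutrophils the order was the opposite, at 2267 and 1213 CPM (-0.90), with a UMI in 91.1% and 82.4% of thinned cells. The share of lymphocytes with S100a8 moved with Zfp36, and its part in the Zfp36 values was not tested. Whether Zfp36 bears on the level of any of the 10 cytokine genes was not tested.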

How the data were processed

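The authors deposited a filtered matrix of UMI counts per gene and cell for each of the 2 libraries (10x Genomics 3′ chemistry, Cell Ranger 7.1.0 per the file headers). These counts are whole numbers and were not normalized. Seurat 4 and mm10 are named in the submitters' processing notes. Depth was 146204416 UMIs in the Runx3_fl-labelled library and 75478164 in the Runx3-labelled library, and a count of 0 allows up to 0.0252% and 0.0367% of kept cells. Of 32285 gene IDs 32235 were in GENCODE M21 (GRCm38), from which coordinates and 3′UTRs were taken. RefSeq was used for no printed sequence.

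UMIs were summed over the cells of each class, divided by all UMIs of those cells and given as CPM with exact Poisson intervals. Log2 ratios had 1 CPM added, and their intervals were exact binomial ones without it. Doublets were treated by the limit on genes. Named genes were the 10 members, and from each of the 4 lists of other genes the 3 highest and 3 lowest ratios in a class at 50 CPM or more, a selection of which is printed. Likeness was Pearson r of log2(CPM + 1) among genes at 50 CPM or more. The members, the class rules and the lists were chosen with earlier results of these data known. Alternatives changed the cell filters, class rules, scaling, added CPM and thinning, and those chosen after the data were seen left out cells with Foxp3, used a stricter Cd79a rule, left out the top cell, or split classes by Il1rl1, Cd79b, Lyz2, Nkg7 and Prf1. The ratio step was run on simulated CD4 T cell sums of 2825 genes, 200 of them changed. Of these 200, 96.5% came back within 0.25 log2 units, and 95.3% of intervals covered the true ratio. The sums were drawn with counting error alone, for genes expected at 200 UMIs or more before the change. Recovered ratios were centred on the median gene. The simulation therefore says nothing of scarcer genes or of UMIs gathered in a few cells. The work was done in Python 3.11.15 with scipy 1.17.1, numpy 2.4.6, scikit-learn 1.9.0, pandas 2.3.3 and matplotlib 3.10.9.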

Additional observations from a re-analysis of the deposited data

Results flagged for a closer look

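Xcl1, Il22, Ltb and Areg had log2 ratios (Runx3 over Runx3_fl) of opposite sign in different classes, each with a counting interval that left out 0. Xcl1 was at 0.24 in NK cells and at -1.86 in CD4 T, -2.53 in Il7r Rora and -1.96 in Cd79a cells. Il22 was at 0.87 in Cd79a cells, where 1 cell in each library held nearly all UMIs, and at -1.93 in CD4 T and -4.27 in Il7r Rora cells. Ltb was at 0.64 in Cd79a cells and -0.57 in NK cells. Areg was at 0.86 in Cd79a cells and at -0.51 in CD4 T and -0.32 in Il7r Rora cells. These signs did not all hold under the processing alternatives. Xcl1 reached -0.74 in NK and 0.25 in CD4 T cells, and Il22 reached 0.95 in CD4 T and -1.98 in Cd79a cells. Areg reached 0.62 in CD4 T, 0.52 in Il7r Rora and -0.04 in Cd79a cells. The remaining ratios, with both of Ltb, kept their sign. With 1 library a group the differences between classes were not tested.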

How the results depend on the processing

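Each group was 1 library, so no value has a replicate check and no paired analysis was possible. Counting depth limits Csf2, Il17a, Il2, Il21 and Lta, and the T cell classes of the Runx3-labelled library hold 76 and 208 cells. Of 43 log2 ratios, 19 kept 1 sign under every alternative run, and of 19 past 2-fold, 3 stayed past it: Ifng in CD4 T cells and Csf2 and Xcl1 in Il7r Rora cells. An alternative that added 10 CPM to both levels cannot give 2-fold for a gene under 10 CPM in both libraries. The count of 3 therefore does not measure stability for such genes. The causes of the moves below were not tested.

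The log2 ratio of Ifng in CD8 T cells, -1.37, turned to 0.66 where the class rules were read on cells thinned to 2000 UMIs, which left 125 and 8 cells. It was -1.74 with all deposited cells, -0.47 without UMIs of other lineages, -0.98 without called doublets (1130 and 534 cells removed), -0.79 as the mean of per-cell CPM, -2.96 with Itgam, -0.80 without Itgam and -1.85 without the top cell. In CD4 T cells, at -3.03, it was -3.34, -2.24 and -1.33 with all deposited cells, without other lineages and with thinned rules, -2.74 in cells meeting 1 rule, -3.57 with Itgam, -2.71 without Itgam, -2.75 without Foxp3 and -3.47 without the top cell. In NK cells, at 0.01, it was 0.41 with thinned rules and -0.18 without Itgam. Of other ratios past 2-fold, the sign turned for Xcl1 in CD4 T cells (0.25 without called doublets). It also turned for Il22 in CD4 T cells (0.95 without other lineages, 0.087 without Itgam). The Lta ratio in CD8 T cells was -1.04 without other lineages, from 15 and 0 UMIs. By its Poisson interval that 0 allows up to 12.2 CPM, above the 1.06 CPM of the Runx3_fl-labelled library. No turn of sign can therefore be read for Lta.

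Counts of members at least 2-fold lower moved from 0 to 1 in NK cells (thinned rules, no Itgam). In CD8 T cells they moved from 2 to 5 (no other lineages), 1 or 0 (per-cell mean). Of those 5, Il22, Il2, Lta and Areg had 0 UMIs in the Runx3-labelled library. A 0 there allows up to 12.2 CPM, above their levels in the Runx3_fl-labelled library, so their differences were not detectable. In CD4 T cells the counts moved from 3 to 1 (no called doublets) or 5 (Itgam). They moved from 3 to 5 in Il7r Rora cells (Itgam) and from 2 to 1 in Cd79a cells (no other lineages, no called doublets, stricter rule). Counts at least 2-fold higher moved from 1 to 0 or 2 in NK cells, from 1 to 0 in CD8 T cells, from 3 to 1 or 0 in CD4 T cells, from 2 to 1 or 0 in Il7r Rora cells and from 2 to 0, 1, 4 or 5 in Cd79a cells.

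The difference in the share of cells with Ifng, -23.9 points in CD8 T and -29.7 in CD4 T cells, was -55.4 and -61.3 unthinned, -10.7 and -21.5 at 1000 UMIs, and -43.6 and -51.0 for at least 2 UMIs. With thinned rules the differences in class size were -3.72 (NK), -0.98 (CD8 T), -1.93 (CD4 T) and 16.1 points (Cd79a), from -10.2, -9.28, -10.4 and 19.3.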

Other observations

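Ltb detection in NK cells went with Xcl1 in the Runx3_fl-labelled library: 6.92% (5.09 to 9.15) of 650 thinned NK cells with an Xcl1 UMI had an Ltb UMI, against 3.10% (1.97 to 4.61) of 742 without one. In Cd79a cells of that library, Xcl1 was in 19.2% (9.63 to 32.5) of 52 thinned cells with Ifng and in 1.99% (0.999 to 3.54) of 552 without it. The CD8 T cells gave 2.34% and 1.69%, with overlapping intervals. Nkg7 was in 29.6% of all Cd79a cells of that library, and the part of such cells in the pair was not tested. NK cells with an Itgam UMI had Xcl1 at 489 CPM (474 to 504) in the Runx3_fl-labelled library and 791 CPM (737 to 848) in the Runx3-labelled library, whereas those without one had 695 CPM (671 to 719) and 416 CPM (361 to 476), the opposite order. The letters TGTGGT or ACCACA, the core read by RUNX proteins, lay within the 250 bases before to 50 after the RefSeq start of 2 of the 10 genes (Xcl1 and Il17a) and of 16.8% of all 32851 such windows, read on both strands.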
